A study of Rattus norvegicus with 12 samples.

Results

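The genes described here carry out the uptake and the first oxidative steps of the branched-chain amino acids leucine, isoleucine and valine. They were chosen by gene symbol, as the rows of the deposited gene table named Bcat1, Bcat2, Bckdha, Bckdhb, Dbt, Dld, Bckdk, Ppm1k, Slc7a5 and Slc43a2, and each of the 10 symbols matched 1 of the 34700 genes in the table. Heart RNA of 12 male Sprague-Dawley rats was sequenced, with 3 rats in each of 4 groups, and a rat was operated on at the age of 8 weeks. Rats were grouped by echocardiography 4 weeks after surgery, and the hearts were taken 12 weeks after surgery. The Sham rats had the left anterior descending coronary artery threaded without ligation. The HF rats (labelled HF+Sed) had a ligation of the same artery, which gives a myocardial infarct and heart failure, and stayed sedentary. The HFE rats (HF+Exe) had the ligation and then trained on a treadmill (60 min daily, 5 times per week, 8 weeks). The BAIBA rats (HF+Med) had the ligation and then 75 mg/kg/day of β-aminoisobutyric acid by oral gavage for 8 weeks. The methods describe separate exercise and BAIBA studies, each with Sham and HF rats, and those of the BAIBA study received water by gavage. The labels do not say from which study the sequenced Sham and HF rats came. By the labels none of the 4 sequenced groups had exercise or BAIBA without an infarct, although the study also exercised Sham rats. The tissue came from the front wall of the left ventricle. For the BAIBA group alone the methods add that it was the zone next to the infarct. Another passage of the study places the HF tissue there as well. Treatment and sampling site therefore cannot be told apart in comparisons of the BAIBA rats with the Sham or HFE rats. For BAIBA against HF the passages differ, so a difference of site remains possible there. Site may also differ in HF against Sham and HFE against HF, since no passage places the sequenced Sham or HFE tissue in that zone.

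Branched-chain amino acids enter cells through transporters of large neutral amino acids. Inside the cell a transaminase removes the amino group, and the branched-chain α-keto acid dehydrogenase complex of mitochondria then removes a carboxyl group in a step that cannot be reversed. The complex is switched off when a kinase phosphorylates its E1 subunit and switched on again by a phosphatase, and the products feed the citric acid cycle. In the failing heart this pathway is known for the accumulation of the amino acids and their keto acids when its flux is low, and valine is also a source of BAIBA.

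The promoters of the genes whose HF and Sham rats did not overlap are shown to let a reader compare the sequence at their start sites. RefSeq promoter windows of assembly GRCr8, which run from 250 bases before to 50 bases after a start site, were found for 8 of the 10 genes. Bckdha and Ppm1k were not among them, and Bcat1 had 2 windows. In the sequences below, written 5′ to 3′ along the gene, capitals mark a CCAAT box (CCAAT or ATTGG) or a GC box (GGGCGG or CCGCCC).
Bckdk (chr1:191945559-191945858, + strand): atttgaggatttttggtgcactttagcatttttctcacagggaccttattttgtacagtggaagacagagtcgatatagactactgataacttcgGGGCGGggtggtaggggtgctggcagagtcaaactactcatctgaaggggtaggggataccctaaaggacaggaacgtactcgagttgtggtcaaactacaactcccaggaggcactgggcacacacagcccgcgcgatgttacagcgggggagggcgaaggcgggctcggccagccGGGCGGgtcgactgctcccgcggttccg
Dbt (chr2:207166410-207166709, + strand): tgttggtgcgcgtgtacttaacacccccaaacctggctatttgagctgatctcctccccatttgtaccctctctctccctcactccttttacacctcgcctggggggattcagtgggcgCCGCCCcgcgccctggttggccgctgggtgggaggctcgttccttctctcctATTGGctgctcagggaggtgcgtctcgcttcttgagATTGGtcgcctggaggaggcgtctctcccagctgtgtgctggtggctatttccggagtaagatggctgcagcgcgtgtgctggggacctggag
Bckdhb (chr8:93725027-93725326, + strand): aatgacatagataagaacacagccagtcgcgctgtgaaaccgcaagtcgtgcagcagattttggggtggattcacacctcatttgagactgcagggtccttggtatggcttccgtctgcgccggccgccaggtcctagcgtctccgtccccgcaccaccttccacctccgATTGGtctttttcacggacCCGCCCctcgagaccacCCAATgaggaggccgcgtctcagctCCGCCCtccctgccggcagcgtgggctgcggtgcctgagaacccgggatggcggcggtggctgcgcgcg
Bcat2 (chr1:105178889-105179188, + strand): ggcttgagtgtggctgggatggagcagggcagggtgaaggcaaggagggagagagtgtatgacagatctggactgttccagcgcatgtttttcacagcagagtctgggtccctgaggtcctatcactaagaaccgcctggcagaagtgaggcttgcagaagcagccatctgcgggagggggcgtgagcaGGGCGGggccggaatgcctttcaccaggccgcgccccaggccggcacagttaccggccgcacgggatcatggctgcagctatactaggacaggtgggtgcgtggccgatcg
Slc43a2 (chr10:60874588-60874887, + strand): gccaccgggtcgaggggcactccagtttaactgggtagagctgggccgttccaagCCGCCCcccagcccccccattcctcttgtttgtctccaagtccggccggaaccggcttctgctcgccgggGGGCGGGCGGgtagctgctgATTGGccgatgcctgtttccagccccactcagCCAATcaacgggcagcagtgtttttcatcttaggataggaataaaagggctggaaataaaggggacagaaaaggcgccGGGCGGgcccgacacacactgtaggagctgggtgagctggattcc
The window of Bckdk, the kinase of the complex, held 2 GC boxes and 0 CCAAT boxes. The windows of Dbt and Bckdhb, which encode subunits of the complex, each held 2 CCAAT boxes, with 1 GC box in Dbt and 2 in Bckdhb. The Slc43a2 window held 2 CCAAT boxes and 4 GC boxes, and 2 of these GC boxes share bases. The Bcat2 window held 1 GC box and 0 CCAAT boxes. A CCAAT box was present in 37.5% and a GC box in 33.1% of the 33469 rat promoter windows, with both strands searched, so these letters are common. The letters AAGGTCA, a core recognised by estrogen-related receptors that act on oxidative genes, were in none of the windows of these genes on either strand and in 4.61% of all windows. A match of letters is a description of the window and says nothing of a bound factor.

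The levels of the genes were compared as FPKM, the count scaled by gene length and library size. The mitochondrial enzymes stood far above the transporters. Dld, the E3 dihydrolipoamide dehydrogenase that also serves the pyruvate and 2-oxoglutarate dehydrogenase complexes, had a mean of 205 FPKM over the 12 rats (range 177 to 230). It was above Bckdha in 12 of 12 rats. Bckdha, the E1α subunit that carries the regulatory phosphorylation, followed at 108 FPKM (77.6 to 132), and Bckdhb, the E1β subunit, at 80.7 FPKM (68.3 to 95.3). Bckdha was above Bckdhb in 10 rats and below it in BAIBA rats 1 and 2. Bcat2, the mitochondrial transaminase, had a mean of 70.3 FPKM (47.5 to 87.5) and was below Bckdhb in 10 rats. Bckdk, at 48.7 FPKM (42.5 to 58.2), was below Bcat2 in 11 rats. Bckdk and Dbt, the E2 core of the complex at 45.4 FPKM (39.4 to 55.4), were not separated, since Bckdk was the higher of the pair in 8 of 12 rats. Ppm1k, the phosphatase that opposes Bckdk, was below both in 12 of 12 rats, with a mean of 26.0 FPKM (18.5 to 31.9).

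The remaining genes were low. Slc43a2, a sodium-independent transporter of large neutral amino acids also called LAT4, had a mean of 3.28 FPKM (1.21 to 6.23). Slc7a5, the LAT1 transporter that pairs with the heavy chain Slc3a2, had 1.04 FPKM (0.597 to 1.43). Bcat1, the cytosolic transaminase, had 0.960 FPKM (0.368 to 2.64) and was below Slc7a5 in 10 of 12 rats. The low genes also varied most. The highest CPM (counts scaled by library size) of a rat was 6.71 times the lowest for Bcat1, 5.18 times for Slc43a2 and 2.25 times for Slc7a5, against 1.26 to 1.87 times for the mitochondrial members. Between 16 and 116 counts per rat stood behind Bcat1 and between 34 and 82 behind Slc7a5, so counting error alone is sizeable there.

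**Figure D1:**
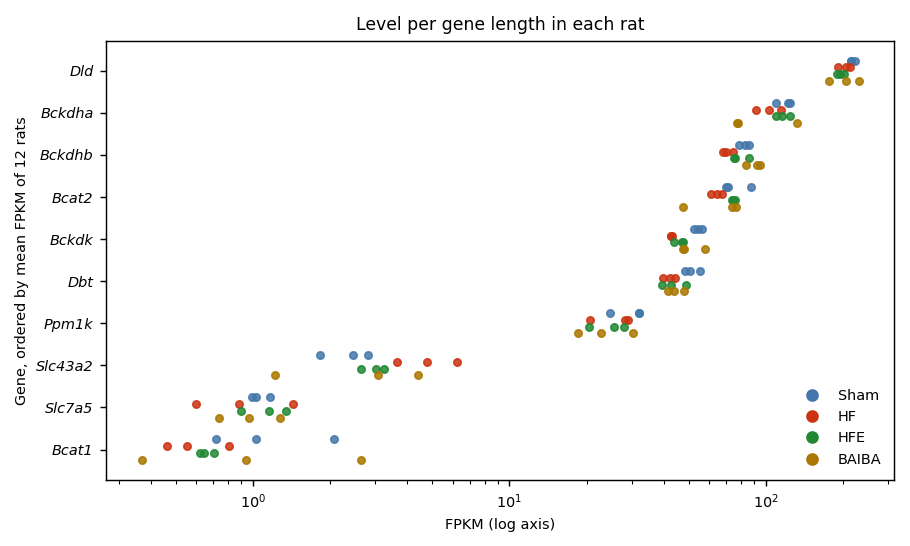
Level of the 10 genes in each of the 12 rats, in FPKM on a log axis, with genes ordered by their mean and rats coloured by group. The 7 mitochondrial genes lie between 18.5 and 230 FPKM in every rat, and Slc43a2, Slc7a5 and Bcat1 between 0.368 and 6.23 FPKM.

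The libraries held between 14812541 and 19732588 counts. Cardiomyocyte markers defined the tissue as heart muscle in every rat, with a summed level of 6 genes between 29681 and 41740 CPM. That sum was between 39316 and 41740 CPM in the Sham rats and between 31036 and 33936 CPM in the HF rats, so these groups did not overlap, but Myh6, a myosin heavy chain, made up most of that difference (17422 to 19603 CPM against 11252 to 13878 CPM). Without Myh6 the sum was between 21738 and 22137 CPM in Sham and between 19784 and 21520 CPM in HF. The groups thus still did not overlap. Atp2a2 also did not overlap (log2 fold change −0.19), while Tnnt2 (−0.01), Actn2 (−0.01), Tnni3 (−0.05) and Ryr2 (−0.24) did, and none of the 6 passed the adjusted test. The fibroblast and scar markers overlapped as a sum (1368 to 1468 CPM in Sham, 1053 to 1521 CPM in HF). Within that list Col1a1 (log2 fold change −0.56) and Col3a1 (−0.42) were lower in each HF rat than in each Sham rat. Postn (−0.80), Lum (−0.17) and Dcn (0.20) overlapped, and none of the 5 passed the adjusted test. BAIBA rat 1 stood apart, with 885 CPM for the 5 macrophage and leukocyte markers against 86.1 to 199 CPM in the other 11 rats, of which Lyz2 made 758 CPM, and with 57.8 CPM for the 3 mesothelial markers. That rat also had the highest fibroblast and scar sum (1912 CPM) and the lowest endothelial sum (379 CPM) of all rats. The mesothelial sum of BAIBA rat 3 (19.7 CPM) was above that of every rat except BAIBA rat 1. Among the HF rats, rat 1 had the highest leukocyte sum (182 CPM), of which Ptprc made 104 CPM, and without Ptprc its sum was the lowest of the 3 (78.3 CPM against 86.1 and 105 CPM). Its mesothelial sum (9.98 CPM) was the highest of the 3. Over the 5 leukocyte markers the HF sums (104 to 182 CPM) overlapped with the Sham sums (133 to 199 CPM). Without Ptprc each HF rat was below each Sham rat (113 to 172 CPM). Lyz2 was lower in each HF rat than in each Sham rat (log2 fold change −0.97, edgeR adjusted p = 0.737). Ptprc was higher in HF by estimate (0.95) and overlapped. In these bulk samples, fewer cells of a type and less RNA per cell cannot be told apart, and the part of such differences in the values below was not tested.

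The first comparison, HF with Sham, addresses the infarct in sedentary rats. The test was edgeR's quasi-likelihood test over all genes, and a gene was called when its Benjamini-Hochberg adjusted p was below 0.05 and its log2 fold change was over 1 in size. None of the 10 genes was called, and the test called 0% of the 14957 genes tested. At an unadjusted p below 0.05 there were 5 of the 10 genes (1 higher and 4 lower in HF), beside 6.0% of all genes. The rats of both groups did not overlap for 6 of the 10, beside 11.8% of all genes. In 5 of these 6 the HF rats were the lower ones, beside 6.55% of all genes. By the point estimates 9 of the 10 were lower in HF, with a median log2 fold change of −0.19 against 0.01 over all genes. The members were chosen with earlier results of these data known, so these counts describe the genes and do not test them as a set.

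Slc43a2 was the member with the largest difference between HF and Sham. Its levels were 8.25, 10.8 and 12.3 CPM in the Sham rats, 15.5, 21.7 and 29.2 CPM in the HF rats, 14.3, 14.2 and 12.4 CPM in the HFE rats and 18.3, 5.64 and 13.7 CPM in the BAIBA rats. Each HF rat was above each Sham rat and each HFE rat, while the BAIBA rats spread from below the lowest Sham rat to above the lowest HF rat. The HF to Sham log2 fold change was 1.08 (SE 0.25), with an unadjusted p of 0.00348 and an adjusted p of 0.737 from edgeR. DESeq2, the tool named in the study's methods, gave a log2 fold change of 1.09 and an adjusted p of 0.0301, and so called this gene and 0 of the other 9. DESeq2 called 0.152% of the 15788 genes to which it gave an adjusted p. The call therefore depends on the tool, and across the other fits of the comparison the adjusted p ranged from 0.129 without HF rat 1 to 1.00 without Sham rat 2.

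Bckdk, the kinase, had the smallest p of the members that were lower in HF. Its levels were 135, 127 and 123 CPM in the Sham rats, 97.0, 103 and 108 CPM in the HF rats, 103, 118 and 118 CPM in the HFE rats and 129, 118 and 113 CPM in the BAIBA rats. All HF rats were below all Sham rats and all BAIBA rats, and the HFE rats overlapped with the HF rats. The mean was 128 ± 6.45 CPM in Sham and 102 ± 5.36 CPM in HF (SD, n = 3 each). The log2 fold change was −0.33 (SE 0.09, unadjusted p = 0.00552, edgeR adjusted p = 0.784).

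The subunits of the complex had smaller differences of the same sign. Dbt had 161, 171 and 149 CPM in the Sham rats, 132, 134 and 131 CPM in the HF rats, 122, 141 and 161 CPM in the HFE rats and 122, 143 and 150 CPM in the BAIBA rats. The HF rats were tightly grouped and below the Sham rats, while the HFE and BAIBA rats reached from below the HF range into the Sham range. The log2 fold change of HF against Sham was −0.28 (SE 0.08, edgeR adjusted p = 0.805). Bckdhb had 125, 126 and 114 CPM in the Sham rats, 106, 103 and 109 CPM in the HF rats, 111, 134 and 119 CPM in the HFE rats and 132, 129 and 138 CPM in the BAIBA rats. Here the HF rats were below every rat of the other groups, and the BAIBA rats were above every Sham rat. The HF to Sham log2 fold change was −0.20 (SE 0.08, edgeR adjusted p = 0.805).

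Bckdha had 209, 227 and 231 CPM in the Sham rats, 206, 197 and 182 CPM in the HF rats, 204, 247 and 230 CPM in the HFE rats and 137, 153 and 249 CPM in the BAIBA rats. The highest HF rat and the lowest Sham rat were close, and BAIBA rats 1 and 2 were the lowest of all 12 while BAIBA rat 3 was the highest. The log2 fold change of HF against Sham was −0.19 (SE 0.09, edgeR adjusted p = 0.805). Dld, the shared E3 subunit, had 564, 548 and 567 CPM in the Sham rats, 476, 543 and 580 CPM in the HF rats, 522, 530 and 516 CPM in the HFE rats and 499, 479 and 598 CPM in the BAIBA rats. The HF rats spanned the Sham range, and its log2 fold change of −0.07 (SE 0.10) was the smallest in size of the 10.

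The transaminases differed in abundance and in spread. Bcat2 had 109, 130 and 104 CPM in the Sham rats, 97.9, 99.3 and 97.0 CPM in the HF rats, 114, 118 and 118 CPM in the HFE rats and 108, 74.8 and 112 CPM in the BAIBA rats. The HF rats were below all Sham and HFE rats, and BAIBA rat 2 was the lowest of the 12. The HF to Sham log2 fold change was −0.23 (SE 0.10, edgeR adjusted p = 0.805), and it was −0.12 without Sham rat 2. Bcat1 had 2.71, 5.32 and 1.84 CPM in the Sham rats, 2.01, 1.47 and 1.27 CPM in the HF rats, 1.66, 1.94 and 1.71 CPM in the HFE rats and 6.47, 2.57 and 0.965 CPM in the BAIBA rats. Its groups overlapped, and the log2 fold change of −1.05 (SE 0.43, unadjusted p = 0.0418, edgeR adjusted p = 0.805) was −0.53 without Sham rat 2. The BAIBA rats alone held both the lowest and the highest Bcat1 level of the study, and the highest was in BAIBA rat 1, which had the high macrophage and mesothelial markers.

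Ppm1k and Slc7a5 overlapped between all pairs of groups. Ppm1k had 87.2, 65.9 and 84.7 CPM in the Sham rats, 75.1, 77.3 and 58.6 CPM in the HF rats, 54.6, 72.8 and 79.3 CPM in the HFE rats and 46.6, 63.8 and 81.8 CPM in the BAIBA rats. Its HF to Sham log2 fold change was −0.18 (SE 0.15, edgeR adjusted p = 0.866). The range within each group was wider than the distance between any group means. Slc7a5 had 3.58, 3.95 and 3.35 CPM in the Sham rats, 4.70, 2.09 and 3.18 CPM in the HF rats, 4.59, 3.25 and 4.18 CPM in the HFE rats and 4.07, 3.46 and 2.53 CPM in the BAIBA rats. The HF rats held both its lowest and its highest level, and its HF to Sham log2 fold change was −0.13 (SE 0.31, edgeR adjusted p = 0.965).

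**Figure D2:**
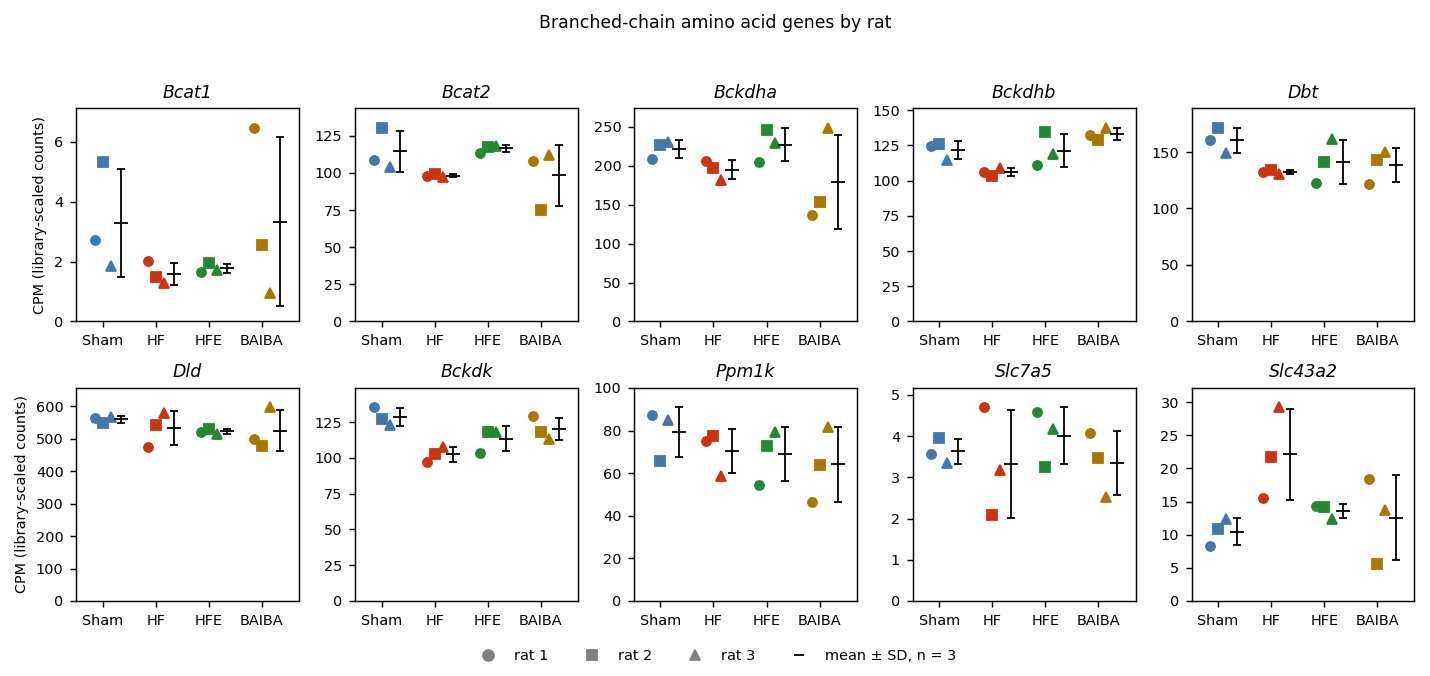
CPM of each of the 10 genes in each rat (points, with the shape giving the replicate number, which does not pair animals) and the mean ± SD of each group of 3 rats (black). For Bckdk, Dbt, Bckdhb, Bckdha and Bcat2 the HF points lie below the Sham points, for Slc43a2 above them, and for Bcat1 the BAIBA points run from 0.965 to 6.47 CPM.

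The second comparison, HFE with HF, addresses treadmill exercise after the infarct. None of the 10 genes was called, against 0% of the 14938 genes tested. An unadjusted p below 0.05 was reached by 2 of them, beside 7.62% of all genes. Bcat2 was higher in HFE than in HF in each rat, with means of 117 ± 2.55 and 98.0 ± 1.15 CPM (SD, n = 3 each). Its log2 fold change was 0.25 (SE 0.07, unadjusted p = 0.00996, edgeR adjusted p = 0.627). Slc43a2 was lower in each HFE rat, with means of 13.6 ± 1.07 and 22.2 ± 6.86 CPM in HFE and HF (SD, n = 3 each), and the log2 fold change was −0.70 (SE 0.22, unadjusted p = 0.0151, edgeR adjusted p = 0.627). Without HF rat 3, the highest rat of this gene, it was −0.45. Bckdhb also did not overlap, with each HFE rat above each HF rat and a log2 fold change of 0.19 (SE 0.09, edgeR adjusted p = 0.661), which was 0.11 without HFE rat 2.

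These 3 genes compare with 14.4% of all genes whose HFE and HF rats did not overlap. The remaining 7 genes overlapped and had log2 fold changes from −0.03 (Ppm1k) to 0.27 (Slc7a5). Bckdha had 0.22 (SE 0.10), Bckdk 0.14 (SE 0.09) and Dbt 0.10 (SE 0.11). Over the 10 genes 7 were higher in HFE, and the median log2 fold change was 0.15 against −0.01 over all genes. The DESeq2 fit called 0 of the 10 and 0.121% of all genes.

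The third comparison, BAIBA with HF, addresses BAIBA given after the infarct. None of the 10 genes was called, against 0% of the 15039 genes tested, and DESeq2 called 0 of the 10 and 0.139% of all genes. Only Bckdhb had an unadjusted p below 0.05, beside 5.55% of all genes. Each BAIBA rat was above each HF rat for Bckdhb, with means of 133 ± 4.26 and 106 ± 2.93 CPM (SD, n = 3 each). The log2 fold change was 0.32 (SE 0.09, unadjusted p = 0.00791, edgeR adjusted p = 0.851), and it ranged from 0.30 to 0.35 over all alternatives. The kinase Bckdk was also higher in each BAIBA rat than in each HF rat, with means of 120 ± 7.97 and 102 ± 5.36 CPM (SD, n = 3 each) and a log2 fold change of 0.23 (SE 0.10, edgeR adjusted p = 0.851).

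Those were 2 of the 10 genes without overlap, beside 11.4% of all genes. Without BAIBA rat 1, the rat with high macrophage markers, there were 4 such genes: Bckdhb, Bckdk and Dbt were higher in the 2 BAIBA rats that remained than in each HF rat, and Slc43a2 was lower. With that rat left out, 20.7% of all genes did not overlap. In all 3 BAIBA rats Slc43a2 overlapped with HF, and its log2 fold change was −0.81 (SE 0.43, edgeR adjusted p = 0.851). It was −1.19 without BAIBA rat 1 and −0.47 without BAIBA rat 2. Bcat1 had the highest estimate, 1.08 (SE 0.64, edgeR adjusted p = 0.851), which was 0.16 without BAIBA rat 1. Bckdha had −0.12 (SE 0.22), with BAIBA rats 1 and 2 below every HF rat and BAIBA rat 3 above them.

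**Figure D3:**
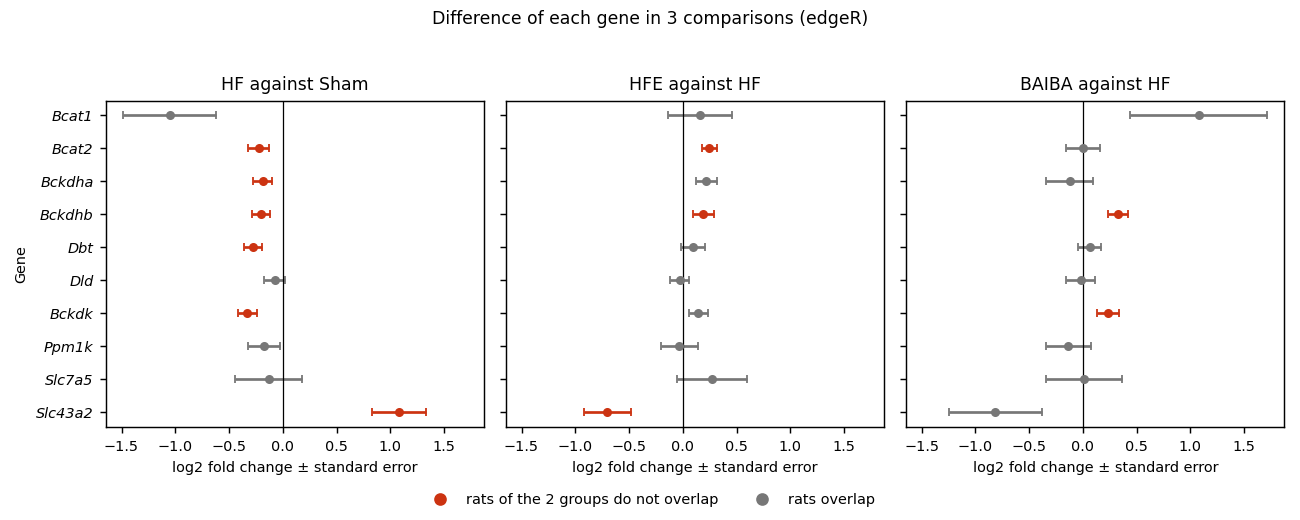
Log2 fold change ± standard error of the 10 genes from edgeR for HF against Sham (left), HFE against HF (middle) and BAIBA against HF (right), on a shared axis. Red points are genes whose rats did not overlap between the groups (6, 3 and 2 genes in the 3 panels), and none passed the adjusted test.

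The HF rats enter all 3 comparisons, so opposite signs in them are not independent of each other. With this in mind, Bckdhb was −0.20 for HF against Sham, 0.19 for HFE against HF and 0.32 for BAIBA against HF. For Bckdk these values were −0.33, 0.14 and 0.23, and for Slc43a2 they were 1.08, −0.70 and −0.81. Bcat2 had −0.23, 0.25 and 0.00, with BAIBA rat 2 as the low value in the last group. Dbt had −0.28, 0.10 and 0.06, Bcat1 −1.05, 0.16 and 1.08, and Slc7a5 −0.13, 0.27 and 0.01. Other members did not change sign in this way. Dld (−0.07, −0.03 and −0.02) and Ppm1k (−0.18, −0.03 and −0.14) were negative in all 3 comparisons, and Bckdha had −0.19, 0.22 and −0.12.

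Comparisons of the treated rats with Sham ask how far their levels were from those of hearts without an infarct. In HFE against Sham none of the 10 genes was called (0% of all genes by edgeR, 0.461% by DESeq2). Slc43a2 had an unadjusted p of 0.0456, beside 11.2% of all genes below 0.05, with each HFE rat above each Sham rat and a log2 fold change of 0.39 (SE 0.16, edgeR adjusted p = 0.432), which was 0.24 without Sham rat 1. Bckdk and Dld were lower in each HFE rat, with log2 fold changes of −0.18 (SE 0.08) and −0.09 (SE 0.06), and the value of Bckdk was −0.11 without HFE rat 1. These 3 genes without overlap stand beside 17.7% of all genes. In BAIBA against Sham none of the 10 was called (0.0402% of all genes by edgeR, 0.443% by DESeq2) and 0 had an unadjusted p below 0.05, beside 7.41% of all genes. Bckdhb alone did not overlap, beside 12.7% of all genes, with a log2 fold change of 0.13 (SE 0.09), and without BAIBA rat 1 Bckdk was a second such gene, lower in BAIBA, beside 24.8% of all genes with that rat left out.

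BAIBA against HFE compares the treatments. None of the 10 genes was called (0.0808% of all genes by edgeR, 1.11% by DESeq2), and 0 had an unadjusted p below 0.05, beside 9.57% of all genes. Bcat2 was the only gene of the 10 without overlap, beside 15.5% of all genes, and was lower in BAIBA with a log2 fold change of −0.24 (SE 0.15, edgeR adjusted p = 0.690). Without BAIBA rat 2 this value was −0.08. Bckdha had −0.34 (SE 0.22), which was −0.64 without BAIBA rat 3. Bcat1 had 0.92 (SE 0.61), which was −0.01 without BAIBA rat 1, so that rat carried the whole estimate.

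A test of any difference among the 4 groups gave no call among the 10 genes, against 0% of 15617 genes by edgeR and 1.95% by DESeq2, which also called 0 of the 10. The smallest unadjusted p-values were those of Bckdk and Bckdhb, both 0.0205 (edgeR adjusted p = 0.447 each), followed by Slc43a2 at 0.0501 (edgeR adjusted p = 0.513). These first 2 genes were below 0.05 unadjusted, beside 9.71% of all genes. Dld (0.740) and Slc7a5 (0.779) had the largest.

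Ratios within a rat do not depend on the scaling of the library and show how paired genes stood to each other. The kinase to phosphatase ratio, Bckdk over Ppm1k in FPKM, was 1.77, 2.19 and 1.65 in the Sham rats, 1.47, 1.51 and 2.09 in the HF rats, 2.15, 1.85 and 1.70 in the HFE rats and 3.15, 2.10 and 1.58 in the BAIBA rats. The kinase had the higher level in each of the 12 rats, and the groups overlapped throughout. The highest ratio was in BAIBA rat 1, where Ppm1k was the lowest of the study.

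The ratio of the E1 subunits, Bckdha over Bckdhb, was between 1.32 and 1.59 in the 9 rats of the Sham, HF and HFE groups. In the BAIBA rats it was 0.814, 0.934 and 1.43. BAIBA rats 1 and 2 were thus outside the range of all other rats and BAIBA rat 3 inside it. The ratio of E1β to the E2 core, Bckdhb over Dbt, was 1.64, 1.55 and 1.62 in the Sham rats, 1.70, 1.62 and 1.76 in the HF rats, 1.91, 2.01 and 1.55 in the HFE rats and 2.29, 1.91 and 1.93 in the BAIBA rats. The BAIBA rats were above all Sham and all HF rats and overlapped with the HFE rats.

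The mitochondrial transaminase exceeded the cytosolic one by 29.0 to 201 times, and both extremes were BAIBA rats (rats 1 and 3). The ratio of the transporters, Slc43a2 over Slc7a5, had a mean of 2.24 ± 0.543 in Sham, 5.88 ± 2.93 in HF, 2.68 ± 0.589 in HFE and 2.97 ± 1.53 in BAIBA (SD, n = 3 each). In the HF group the lowest ratio, 2.54, was inside the Sham range of 1.78 to 2.84. These ratios were chosen after the levels were known and were not tested.

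**Figure D4:**
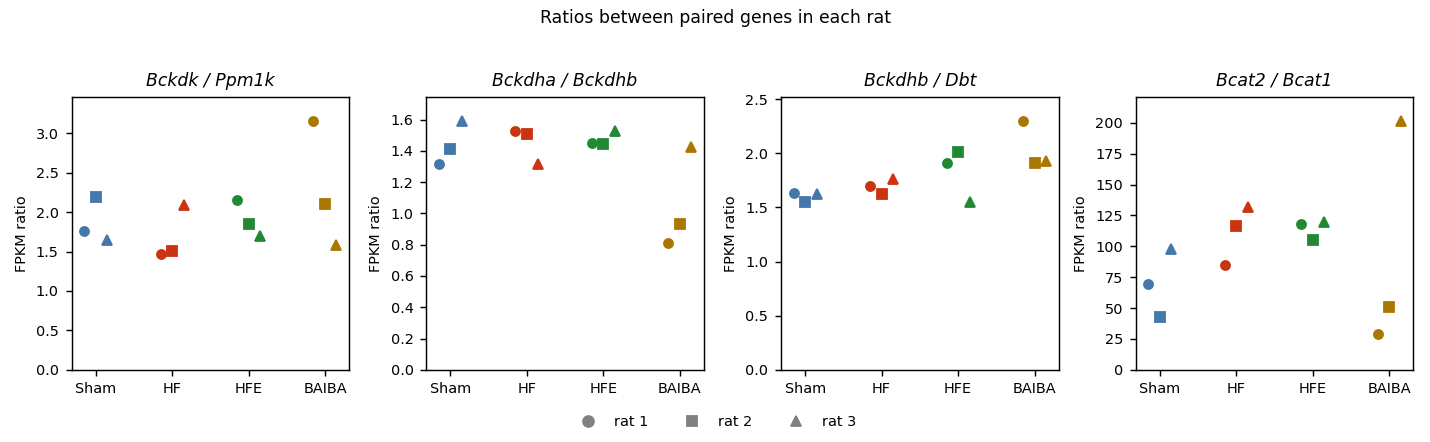
FPKM ratios in each rat (points, with the shape giving the replicate number) for the kinase over the phosphatase, E1α over E1β, E1β over E2, and the mitochondrial over the cytosolic transaminase, on axes from 0. Bckdha over Bckdhb is 0.814 and 0.934 in BAIBA rats 1 and 2 and at least 1.32 in the other 10 rats.

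Whether paired genes varied together between rats was examined for 6 pairs, with the group means removed from log2 CPM and an exact permutation test within groups. Slc7a5 with its heavy chain Slc3a2 had Pearson's r = 0.50 (exact two-sided p = 0.267) and Spearman's rho = 0.25 (exact p = 0.534) over 12 rats. Both had adjusted values above the threshold (0.785 and 0.870 over the 6 pairs), and without the 2 rats farthest from the median r was 0.19. Bckdhb with Dbt had r = 0.41 (exact p = 0.460) and Spearman's rho = 0.35 (exact p = 0.414), and without the 2 farthest rats r was 0.29. Bckdha with Bckdhb had r = 0.36 (exact p = 0.172) and Spearman's rho = 0.50 (exact p = 0.150), and without the 2 farthest rats r was 0.44.

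The kinase and the phosphatase, Bckdk and Ppm1k, had r = −0.15 (exact p = 0.696) and Spearman's rho = −0.13 (exact p = 0.767), and r was −0.27 without the 2 farthest rats. Bcat1 with Bcat2 had r = 0.17 (exact p = 0.785) and Spearman's rho = 0.27 (exact p = 0.582), and r was 0.51 without the 2 farthest rats. Slc7a5 with Slc43a2 had r = −0.17 (exact p = 0.647) and Spearman's rho = −0.06 (exact p = 0.870), and r was 0.02 without the 2 farthest rats. No pair passed after adjustment over the 6 pairs, where each adjusted p was 0.785 for r and 0.870 for rho. No relation was detectable among these 6 pairs in the 12 rats, and the other pairs of members were not tested.

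The genes whose pattern over the 12 rats was most like that of Bckdk, the member with the smallest p among the 4 groups, were ranked by Pearson's r of log2 CPM among the genes tested, as a description in which all points share their libraries. They were Aida (r = 0.90), Slc37a2 (0.88), Fam184b (0.86), a gene assembled by the authors that has no symbol (0.84) and Oasl (0.84). Among the other 9 members Bckdhb was the nearest, with r = 0.69 at rank 153, and Bcat1 followed with 0.60 at rank 415. Slc43a2 had the most negative value, −0.49.

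A list of 27 further genes of the pathway was counted as a whole: the enzymes of the leucine, isoleucine and valine arms, of propionyl-CoA and of BAIBA, other transporters of large neutral amino acids and the regulator Klf15. None was called by edgeR or DESeq2 in any of the 6 comparisons, and 25 or 26 of the 27 passed the filter of the edgeR fits on low counts. In HF against Sham 10 of 25 were higher and 15 lower, with a median log2 fold change of −0.03 against 0.01 over all genes. An unadjusted p below 0.05 was found for 0 higher and 2 lower genes, beside 6.0% of all genes. Acat1, the thiolase that acts late in the isoleucine arm and on ketone bodies, had means of 717 ± 43.6 CPM in Sham and 602 ± 57.7 CPM in HF (SD, n = 3 each), a log2 fold change of −0.26 (SE 0.10) and an edgeR adjusted p of 0.805. Mut, the methylmalonyl-CoA mutase, had −0.20 (SE 0.09) and an edgeR adjusted p of 0.805.

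In HFE against HF 13 of 26 genes of this list were higher and 13 lower. At an unadjusted p below 0.05 there were 1 higher gene and 0 lower genes, beside 7.62% of all genes. The smallest p-values were those of Pccb, a subunit of propionyl-CoA carboxylase, with a log2 fold change of 0.23 (SE 0.08, edgeR adjusted p = 0.627), and of Acat1, with 0.21 (SE 0.10, edgeR adjusted p = 0.667). In BAIBA against HF 12 of 25 were higher and 13 lower. Again 1 higher gene and 0 lower genes had an unadjusted p below 0.05, beside 5.55% of all genes. Slc7a8, the LAT2 transporter, had a log2 fold change of 0.54 (SE 0.22, edgeR adjusted p = 0.851) with each BAIBA rat above each HF rat. It was the only gene of the list without overlap, beside 11.4% of all genes.

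The enzymes that handle BAIBA itself were barely detected in these hearts. Agxt2 had between 0 and 0.128 CPM in the 12 rats and was below the filter in every comparison. Abat, the transaminase that acts on BAIBA, had between 0.138 and 1.04 CPM.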

How the data were processed

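Paired-end mRNA libraries of 12 rat hearts (3 per group by the sample labels) were used. According to the methods, the authors trimmed the reads, aligned them with HISAT2, added unannotated genes by StringTie assembly, and counted reads per gene with featureCounts. The deposited counts are raw whole numbers, and the deposited FPKM were computed by the authors from the counts and gene lengths. Versions are not given in the sources used here, the submitters' processing notes list only the mouse build mm9 although the gene identifiers are rat, and strand use in counting is not stated, so reads of overlapping antisense genes may be included. No gene coordinates are printed for the counts, and the GRCr8 promoters serve only as sequence.

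These counts were fitted with edgeR 4.0.16 under R 4.3.3 (TMM, filterByExpr, robust quasi-likelihood fits of the groups compared, Benjamini-Hochberg adjustment over all genes tested). All 10 members passed the filter in each comparison. Calls needed an adjusted p below 0.05 and an absolute log2 fold change over 1, and SE is the log2 fold change over the square root of F. CPM used TMM factors over the 12 rats. The p-values of the fits rest on the spread between rats, which edgeR estimates with information shared across genes. Those of the relations come from permuting rats within groups. The labels give the rats as separate samples, and an exact permutation of 3 rats against 3 cannot go below 0.1. The steps were tested on simulated data. Alternatives were DESeq2 1.42.0, RLE or library-size scaling, other count filters, a fit of 12 rats, a replicate block, leaving out each rat, other thresholds, and limma 3.58.1 on log2(FPKM + 1) and log2(FPKM + 0.1) for a mean FPKM of at least 0.1.

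The members and gene lists were chosen with earlier results of these data known. Named were all 10 members, the partners in the 6 relations, the 5 genes nearest in pattern, and of the pathway list those called and the 2 with the smallest p in each of the 3 main comparisons. A gene named by this rule is not reported here. The BAIBA enzymes and single marker genes were named after their values were seen. The replicate numbers come from the labels, and rats that share a number are separate animals. Same-numbered deviations correlated above 0.1 in 3 of 3 pairs for BAIBA against HFE (0.12 to 0.22) and in no more than 1 of 3 pairs elsewhere. The methods give BAIBA to HF rats only, whereas a supplement also names Sham rats, and the labels were followed.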

Additional observations from a re-analysis of the deposited data

How the results depend on the processing

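With 3 rats per group, small differences cannot be separated from the spread between rats. The count of members called stayed at 0 with other normalizations, filters, limma, a fit of 12 rats, no fold limit or any rat left out. With the replicate number as a block it was 0 in each of the 6 comparisons and among the 4 groups, so the block changed no call. In HF against Sham it was 1 with DESeq2 (Slc43a2), and at an unadjusted p it was 5 without a limit on the fold change and 2 with the limit. At an unadjusted p without the limit it was 2 in HFE against HF, 1 in BAIBA against HF and 1 in HFE against Sham, and 2 members passed among the 4 groups. These extra calls come from the looser threshold by construction, and the cause of the DESeq2 call was not tested. Without BAIBA replicate 1, an alternative chosen after seeing the data, members without overlap numbered 4 in place of 2 in BAIBA against HF and 2 in place of 1 in BAIBA against Sham, beside 20.7% and 24.8% of all genes in place of 11.4% and 12.7%.

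Of 900 alternative values of the members' log2 fold changes, 56 had the opposite sign to the reported one, 40 of them with 1 rat left out and 2 of them in HF against Sham. In 55 of the 56 the reported value was within 1 standard error of 0. The remaining one was Bcat1 in BAIBA against HFE, at −0.01 without BAIBA rat 1. Bcat1 in BAIBA against Sham was 0.04 and became −0.90 without that rat. With 1 rat left out, r ranged from −0.65 to 0.24 for Bckdk with Ppm1k, from −0.17 to 0.91 for Bcat1 with Bcat2 and from −0.51 to 0.13 for Slc7a5 with Slc43a2, so these signs rest on single rats. With the replicate block r was 0.84 for Slc7a5 with Slc3a2 (exact permutation within groups, adjusted p = 0.102), the smallest adjusted p of the 6 pairs under the block.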
